A study of Homo sapiens with 24 samples.

Results

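SW13 is a human adrenal carcinoma cell line that lacks its own BRG1, the ATPase encoded by SMARCA4 that drives the BAF (SWI/SNF) chromatin remodeler. The comparison described here set SW13 cells given wild-type BRG1 together with the transcription factor ERG against SW13 cells given wild-type BRG1 together with an empty vector. It rests on 4 of the 24 libraries of the series, chosen by their titles, which are SW13 BRG1 ERG 1 and 2 and SW13 BRG1 Empty 1 and 2. Both groups carried a V5-tagged BRG1 construct selected with puromycin. The BRG1 ERG group also carried a V5-tagged ERG construct and the BRG1 Empty group the matching empty vector, both selected with blasticidin. Lentivirus was left on the cells for 48 h, and 2 days of selection with both drugs followed. Each duplicate had its own infection, selection and culture, per the labels, and polyA RNA was read with 75-base single-end reads on a NextSeq 500. Transgenes were overexpressed in 1 cell line, so the level of ERG is in the main that of its construct. Reads of SMARCA4 may come from the BRG1 construct and from the chromosomal gene. Against these, the same ERG and Empty vectors had been put beside BRG1-K785R, an ATPase mutant of BRG1, and beside a control construct that the titles call GFP and the protocol text luciferase, with 2 libraries per group.

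ERG is an ETS-family factor that binds GGAA-centred DNA. It is expressed in endothelial cells, where it maintains vascular genes, and it becomes abundant in prostate cancers through fusion with TMPRSS2. BAF complexes slide and evict nucleosomes, and their activity decides which enhancers and promoters transcription factors can reach. Which genes ERG changes when an active BAF ATPase is present is the question that the 4 libraries address.

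Levels are CPM, the reads of a gene scaled to a fixed library total, on TMM-scaled library sizes, with the values of both libraries of a group given. Changes are log2 differences with an approximate standard error (SE), and few reads can make that error too small. A gene is called changed at a Benjamini-Hochberg adjusted p under 0.05 in edgeR's two-sided quasi-likelihood test over 17018 genes, in 1 fit of the 12 SW13 libraries. The 4 libraries held 24885023 to 26585914 counted reads, and all 12 SW13 libraries 19754265 to 26595972. Of 16 adrenocortical steroid genes, 4 (CYP11B1, CYP11B2, HSD3B2 and MC2R) had no read in the 4 libraries, and 12 of the 16, these 4 included, averaged under 1 CPM. The BRG1-K785R Empty libraries stood apart from the other 10 SW13 libraries in the nuclear RNA MALAT1, at 88.8 and 94.2 CPM there against 808 to 2003 CPM elsewhere. Summed levels also stood apart, at 9159 and 8660 CPM against 4977 to 6470 for BAF subunits. For ATF4 and amino acid stress genes they were 2996 and 2665 CPM against 987 to 1311. For heat shock and unfolded protein genes they were 23720 and 23791 CPM against 13091 to 18133. This touches every difference taken against BRG1-K785R. Whether the mutant construct had 1 level in both of its groups was not tested. The difference between duplicates, as chi-square over genes divided by its degrees of freedom, was 10.8 in BRG1 ERG and 3.81 in BRG1 Empty, 6.45 in BRG1-K785R ERG and 7.25 in BRG1-K785R Empty, and 2.27 in GFP ERG and 13.1 in GFP Empty. In these bulk libraries fewer cells of a kind and less RNA per cell cannot be told apart.

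The promoters of 4 genes that the results turn on are shown first. They run 250 bases before to 50 bases after the annotated start and are RefSeq sequences on GRCh38.p14, given 5′ to 3′ on the gene's strand. APLN and ROBO4 are endothelial genes that rose with ERG, and capitals mark the ETS core AGGAAG on either strand (CTTCCT where it lies on the other one). APLN lies at chrX:129654907-129655206 on the minus strand and ROBO4 at chr11:124897816-124898115 on the minus strand.
APLN: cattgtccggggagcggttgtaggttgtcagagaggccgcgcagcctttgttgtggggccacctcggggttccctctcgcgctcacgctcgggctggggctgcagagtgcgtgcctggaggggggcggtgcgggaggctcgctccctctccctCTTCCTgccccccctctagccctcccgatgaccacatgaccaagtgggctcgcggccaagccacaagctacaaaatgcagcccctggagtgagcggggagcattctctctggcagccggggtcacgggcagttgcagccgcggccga
ROBO4: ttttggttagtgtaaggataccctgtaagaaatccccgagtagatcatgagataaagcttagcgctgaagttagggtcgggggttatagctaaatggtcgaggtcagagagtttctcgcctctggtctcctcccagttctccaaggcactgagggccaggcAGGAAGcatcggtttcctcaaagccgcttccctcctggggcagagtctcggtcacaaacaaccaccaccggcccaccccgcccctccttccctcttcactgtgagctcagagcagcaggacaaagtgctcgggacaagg
IFIT3 and IFIT1 are interferon-stimulated genes that rose, and capitals mark GAAA, 2 bases of any kind and GAAA again, on either strand, the core of the interferon-stimulated response element. IFIT3 lies at chr10:89327747-89328046 and IFIT1 at chr10:89392373-89392672, both on the plus strand. RSAD2, an interferon-stimulated gene that also rose, had 0 matches of these letters in its window and is not printed.
IFIT3: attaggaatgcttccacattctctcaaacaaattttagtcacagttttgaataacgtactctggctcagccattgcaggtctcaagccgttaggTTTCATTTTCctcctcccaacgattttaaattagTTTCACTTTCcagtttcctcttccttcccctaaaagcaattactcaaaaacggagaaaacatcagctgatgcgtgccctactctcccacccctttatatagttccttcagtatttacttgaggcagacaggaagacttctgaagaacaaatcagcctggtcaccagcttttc
IFIT1: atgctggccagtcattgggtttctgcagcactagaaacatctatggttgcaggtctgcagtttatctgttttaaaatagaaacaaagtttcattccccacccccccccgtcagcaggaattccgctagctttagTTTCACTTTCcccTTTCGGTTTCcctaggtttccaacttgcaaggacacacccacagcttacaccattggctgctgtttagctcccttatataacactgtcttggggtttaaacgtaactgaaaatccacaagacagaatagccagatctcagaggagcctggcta
Searched on both strands, CGGAAG or AGGAAG was in 9 of the 12 promoters in the RefSeq table for endothelial genes called higher (75.0%), against 53.2% of the 12583 promoters of tested genes. The same letters were in 15 of 24 promoters of S-phase genes called lower (62.5%), 15 of 30 of interferon-stimulated effectors called higher and 2 of 6 of basal genes called lower (33.3%). The interferon letters were in 22 of the 30 promoters of interferon-stimulated effectors called higher (73.3%), against 2.93% of the 12583. As 37 of the 40 tested effectors were called higher, that share describes the list and not a response to ERG. The AP-1 letters TGANTCA were in 3 of 6 promoters of basal and hemidesmosome genes called lower, against 4.86% of the 12583. These matches describe the letters in the windows, and binding was not measured here.

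The ERG construct was read in the libraries labelled for it. ERG stood at 1807 and 2099 CPM in the BRG1 ERG libraries, against 0.214 and 0.0377 CPM in the BRG1 Empty libraries. The BRG1 Empty values rest on 6 and 1 reads. SMARCA4, which includes reads of the BRG1 construct, stood at 1904 and 2213 CPM in the BRG1 ERG libraries, against 2042 and 2067 CPM in the BRG1 Empty libraries, with overlapping groups (log2 change 0.00 ± 0.08, adjusted p = 0.981). Reads of the construct and of the chromosomal gene cannot be separated.

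With ERG, 3852 genes were higher and 3872 lower, which is 22.6% and 22.8% of the genes tested, or 45.4% in either direction. At least 2-fold, 666 were higher and 647 lower, 3.91% and 3.8% of those tested. The groups did not overlap in 72.0% of all tested genes, so absence of overlap alone says little. The median log2 change over all tested genes was -0.004. Every count below of list members called with ERG beside BRG1 is to be read against these shares. Counts beside GFP are to be read against 12.6% of all tested genes higher and 13.5% lower. Where the ERG effect beside BRG1 is set against that beside GFP, the shares are 19.1% higher and 18.7% lower.

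The largest rises held genes known from vessels, such as CD93, TIE1, APLN, KDR and ROBO4, beside genes of other kinds. CD93, an endothelial C-type lectin-like receptor, had 327 and 417 reads with ERG, against 0 and 1 reads without it, a ratio of 784 with a 95% counting interval of 140 to 31003. Among the 4 libraries it was all but absent without ERG, and neither GFP group had a read of it. EXOC3L2, a relative of an exocyst subunit, stood at 13.6 and 15.5 CPM with ERG, against 0.0715 and 0.0755 CPM without it (log2 change 7.53 ± 0.34, adjusted p = 3.67e-18). COL15A1, a collagen of vascular and muscle basement membranes, stood at 8.94 and 11.6 CPM with ERG, against 0.143 and 0.0 CPM without it (log2 change 7.03 ± 0.38, adjusted p = 3.77e-16), and that fitted value was 10.92 without BRG1 Empty 1 and 6.12 without BRG1 Empty 2. MYOC, the secreted glycoprotein myocilin, stood at 17.4 and 17.3 CPM with ERG, against 0.143 and 0.226 CPM without it (log2 change 6.52 ± 0.28, adjusted p = 3.03e-18). In each of these genes both ERG libraries were far above both Empty libraries, and only genes without overlap were ranked.

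EXOC3L1 (5.49), the angiopoietin-system receptor TIE1 (5.12), HP (4.99), the peptide ligand apelin APLN (4.83), KIAA1210 (4.75), the VEGF receptor KDR (4.51), the endothelial guidance receptor ROBO4 (4.36), the adaptor LMO2 (4.25) and APOL3 (4.23) completed, with ERG itself, the 14 largest rises by log2 change among called genes that average 5 CPM or more over the 4 libraries. For TIE1 the fitted value was 5.73 without BRG1 Empty 2. HP has the close copy HPR, and reads may be split between them. The 14 largest falls ranged from -4.66 to -2.52 on the log2 scale. Genes with overlapping groups were left out of both rankings by rule. SCEL, a precursor of the cornified envelope of stratified epithelium, stood at 0.544 and 0.732 CPM with ERG, against 16.6 and 16 CPM without it (log2 change -4.66 ± 0.22, adjusted p = 9.48e-18). COL17A1, the transmembrane collagen of hemidesmosomes, stood at 4.24 and 3.81 CPM with ERG, against 42.6 and 39.3 CPM without it (log2 change -3.35 ± 0.14, adjusted p = 7.83e-19). The carboxypeptidase CPA4 stood at 7.65 and 6.89 CPM with ERG, against 69.3 and 66.2 CPM without it (log2 change -3.22 ± 0.12, adjusted p = 4.28e-20). Fitted folds were 25.4-fold, 10.2-fold and 9.31-fold lower with ERG.

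The remaining falls were IGFN1 (-3.64), the hair follicle keratin KRT75 (-3.61), COLCA1 (-3.47, or -4.09 without BRG1 ERG 1), the metalloprotease ADAMTS15 (-3.22), the neuropeptide precursor VGF (-2.86), SYT12 (-2.8), EVA1A (-2.75), CSDC2 (-2.74), the calcium channel subunit CACNG4 (-2.55), the collagen receptor subunit ITGA2 (-2.53) and AIM1 (-2.52). Several of these genes were themselves higher in BRG1 Empty than in GFP Empty. Of all genes tested 32.2% were higher and 30.2% lower in BRG1 Empty than in GFP Empty, 62.4% in either direction. SCEL was at 16.6 and 16 CPM in BRG1 Empty, against 0.498 and 0.661 CPM in GFP Empty, and CPA4 at 69.3 and 66.2 CPM, against 0.0453 and 0.0826 CPM. That comparison shares the BRG1 Empty libraries with the ERG comparison, so the values are given side by side with no test of their relation.

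**Figure D1:**
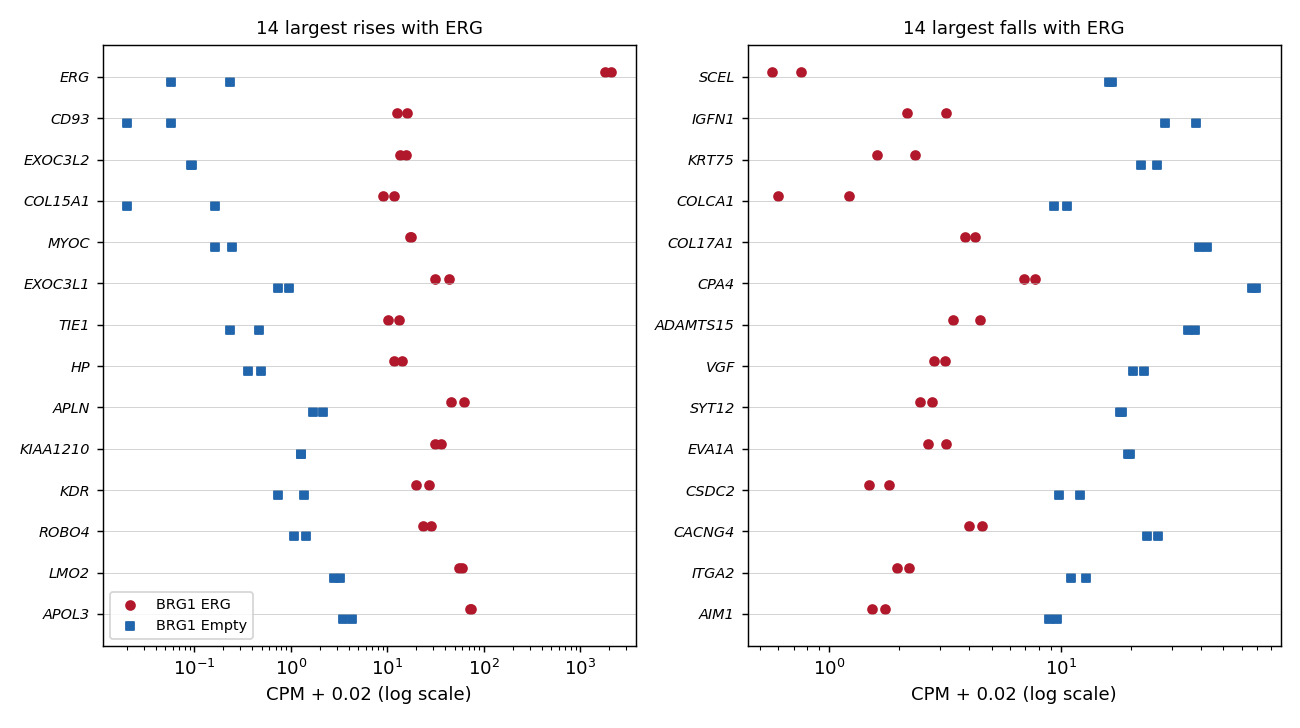
CPM in each library (log axis, 0.02 added so that 0 can be drawn) for the 14 largest rises, left, and the 14 largest falls, right. Red circles are the BRG1 ERG libraries and blue squares the BRG1 Empty libraries. Within every gene drawn, both libraries of one group lie apart from both of the other, which the choice of genes required.

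Endothelial genes formed the vascular part of the rises. Of 37 genes on the list, 33 were tested, 19 rose, 4 fell and 10 were not called, with a median log2 change of 1.09. SOX17 had no read and 11 of the 37 averaged under 1 CPM. With genes kept only at a mean of at least 1 CPM, where fewer members are tested, 12 rose. The 4 falls dropped to 1 or 2 in fits without any single library of the 4.

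Among the receptors, KDR stood at 20.0 and 27.1 CPM with ERG, against 0.715 and 1.36 CPM without it (log2 change 4.51 ± 0.22, adjusted p = 2.17e-17). TIE1 stood at 10.1 and 13.2 CPM with ERG, against 0.214 and 0.453 CPM without it (log2 change 5.12 ± 0.29, adjusted p = 1.23e-15), and the lymphatic VEGF receptor FLT4 at 91.4 and 107 CPM with ERG, against 27 and 27.8 CPM without it (log2 change 1.86 ± 0.09, adjusted p = 9.07e-18). FLT4 was the most abundant of the 3 per length, at 14.7 and 17.2 RPKM with ERG, against 4.44 and 4.64 RPKM without it. The angiopoietin receptor TEK rose less, at 21.6 and 24.1 CPM with ERG, against 17.7 and 16.2 CPM without it (log2 change 0.43 ± 0.1, adjusted p = 0.000731). ENG, a TGF-beta co-receptor of endothelium, stood at 13.4 and 15.8 CPM with ERG, against 2.82 and 2.04 CPM without it (log2 change 2.58 ± 0.17, adjusted p = 9.62e-14). Both ERG libraries were above both Empty libraries for all 5 receptors.

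Among ligands and guidance genes, APLN stood at 45.8 and 62.2 CPM with ERG, against 2.11 and 1.66 CPM without it (log2 change 4.83 ± 0.16, adjusted p = 4.44e-22). Its receptor APLNR was near the limit of detection, at 0.738 and 1.23 CPM with ERG, against 0.608 and 0.113 CPM without it (adjusted p = 0.0287). DLL4, the Notch ligand of arterial tip cells, stood at 16.6 and 16.2 CPM with ERG, against 0.893 and 1.06 CPM without it (log2 change 4.07 ± 0.18, adjusted p = 3.17e-18). ROBO4 stood at 23.3 and 28.2 CPM with ERG, against 1.07 and 1.43 CPM without it (log2 change 4.36 ± 0.19, adjusted p = 2.92e-18). The groups did not overlap in any of the 4, but lay close together in APLNR.

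Junction and surface genes rose and stayed at low levels. PECAM1, the platelet-endothelial adhesion molecule, stood at 4.59 and 4.43 CPM with ERG, against 0.214 and 0.264 CPM without it (log2 change 4.21 ± 0.36, adjusted p = 7.27e-11). CDH5, the endothelial cadherin, stood at 2.6 and 2.62 CPM with ERG, against 0.5 and 0.604 CPM without it (log2 change 2.23 ± 0.37, adjusted p = 1.08e-05). VWF, which tethers platelets, stood at 3.23 and 4.51 CPM with ERG, against 1.22 and 1.28 CPM without it (log2 change 1.63 ± 0.29, adjusted p = 2.9e-05). Both ERG libraries exceeded both Empty libraries in all 3, yet none reached 5 CPM. The transcription regulator LMO2 stood at 55.8 and 59.3 CPM with ERG, against 2.79 and 3.25 CPM without it (log2 change 4.25 ± 0.14, adjusted p = 3.08e-22), or 23.7 and 25.1 RPKM with ERG against 1.21 and 1.43 RPKM without it.

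Other endothelial genes fell or were not called. CD34, a sialomucin of blood and vessel progenitors, was lower at 40.0 and 41.3 CPM with ERG, against 52.2 and 49.1 CPM without it (log2 change -0.32 ± 0.08, adjusted p = 0.00228), and the homeobox factor HHEX fell as well (log2 change -0.31 ± 0.11, adjusted p = 0.0245). The tight junction gene CLDN5 (-1.16, adjusted p = 0.0384) and the lymphatic factor PROX1 (-1.33, adjusted p = 0.0367) also fell, with fewer than 31 reads in each library. The log2 changes of the endothelial factors SOX18 and SOX7 were 0.15 and 0.57, and that of the nitric oxide synthase NOS3 was 0.13, none of them called.

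Interferon genes rose across several of their layers. Type I interferon binds IFNAR1 and IFNAR2, JAK kinases then phosphorylate STAT factors, and these with IRF9 switch on effectors that block viruses. At the receptor level IFNAR2 rose, at 33.8 and 29.6 CPM with ERG, against 20.6 and 19.5 CPM without it (log2 change 0.66 ± 0.09, adjusted p = 3.64e-07), and IFNGR1, a receptor chain for interferon gamma, rose by 0.51 on the log2 scale. IFNAR1 had a log2 change of 0.15 and was not called, and 6 of the 11 receptor and ligand genes, IFNB1, IFNL1, IFNL2, IFNE, IFNK and the receptor IFNLR1, were too low to test. No source of interferon can be read from these data.

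The sensors of foreign RNA and DNA split. Of 11 tested members 6 rose and 2 fell, with a median log2 change of 0.51. TMEM173, which encodes STING, the adaptor of cytosolic DNA sensing, stood at 32.3 and 30.9 CPM with ERG, against 6.4 and 7.4 CPM without it (log2 change 2.2 ± 0.13, adjusted p = 4.17e-15). The RNA helicases IFIH1 (125 and 116 CPM with ERG, against 42.6 and 47 CPM without it, log2 1.43) and DDX58 (137 and 127 CPM with ERG, against 59.9 and 66.9 CPM without it, log2 1.06) rose too. MAVS, the adaptor below those helicases, fell by 0.39 on the log2 scale and MB21D1, the DNA sensor cGAS, by 0.51. TLR3, a receptor for double-stranded RNA in endosomes, rose as well, at 3.46 and 3.16 CPM with ERG, against 1.04 and 0.906 CPM without it (log2 change 1.76 ± 0.29, adjusted p = 1.39e-05), so sensors moved in both directions.

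Among 12 signalling factors 6 rose and 2 fell, with a median log2 change of 0.26. IRF1 stood at 42.7 and 39.2 CPM with ERG, against 23.2 and 22.9 CPM without it (log2 change 0.83 ± 0.09, adjusted p = 8.05e-09), JAK2 at 20.7 and 24.8 CPM with ERG, against 15.2 and 13.5 CPM without it (log2 change 0.67 ± 0.11, adjusted p = 5.32e-06) and JAK1 at 212 and 223 CPM with ERG, against 149 and 146 CPM without it (log2 change 0.56 ± 0.07, adjusted p = 6.46e-08). STAT2 rose by 0.36 on the log2 scale, a call lost without BRG1 Empty 1 (0.23, adjusted p = 0.0525). IRF9, at 47.3 and 48.6 CPM with ERG, against 39.8 and 46 CPM without it, was not called. The 2 falls, TYK2 and IRF7, dropped to none without BRG1 Empty 1 or without BRG1 ERG 1, and to 1 without either of the other libraries.

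Nearly all tested effectors rose. Of 41 genes, 40 were tested, 37 rose, 2 fell and 1 was not called, with a median log2 change of 1.02. Their summed level was 4583 and 4121 CPM with ERG, against 2016 and 2259 CPM without it. OASL, an oligoadenylate synthetase-like protein, stood at 225 and 162 CPM with ERG, against 25.1 and 31.1 CPM without it (log2 change 2.79 ± 0.11, adjusted p = 1.75e-19). IFIT3, which holds viral RNA with IFIT1, stood at 514 and 418 CPM with ERG, against 110 and 126 CPM without it (log2 change 1.98 ± 0.09, adjusted p = 3.77e-18), and IFIT1 at 429 and 355 CPM with ERG, against 119 and 141 CPM without it (log2 change 1.59 ± 0.09, adjusted p = 4.41e-16). RSAD2, the antiviral enzyme viperin, stood at 74.5 and 57.7 CPM with ERG, against 10.4 and 11.9 CPM without it (log2 change 2.57 ± 0.12, adjusted p = 9.45e-17). In each of the 4, BRG1 ERG 1 was the higher of the ERG duplicates, and both were above both Empty libraries.

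Some effectors rose about 2-fold. IFI6 stood at 629 and 581 CPM with ERG, against 289 and 315 CPM without it (fold 2.0, log2 change 1.00 ± 0.08, adjusted p = 2.53e-12) and the ubiquitin-like modifier ISG15 at 523 and 429 CPM with ERG, against 233 and 251 CPM without it (fold 1.97, log2 change 0.98 ± 0.09, adjusted p = 1.31e-10). OAS3 at 125 and 120 CPM with ERG, against 131 and 153 CPM without it and LGALS3BP at 74.3 and 67.3 CPM with ERG, against 122 and 130 CPM without it were the 2 that fell, by 0.21 and 0.83 on the log2 scale. The OAS3 fall is small, and 1 fall remained without BRG1 Empty 2, without BRG1 ERG 2 and in DESeq2. EIF2AK2, the RNA-activated kinase PKR, had a log2 change of 0.09 and was not called.

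**Figure D2:**
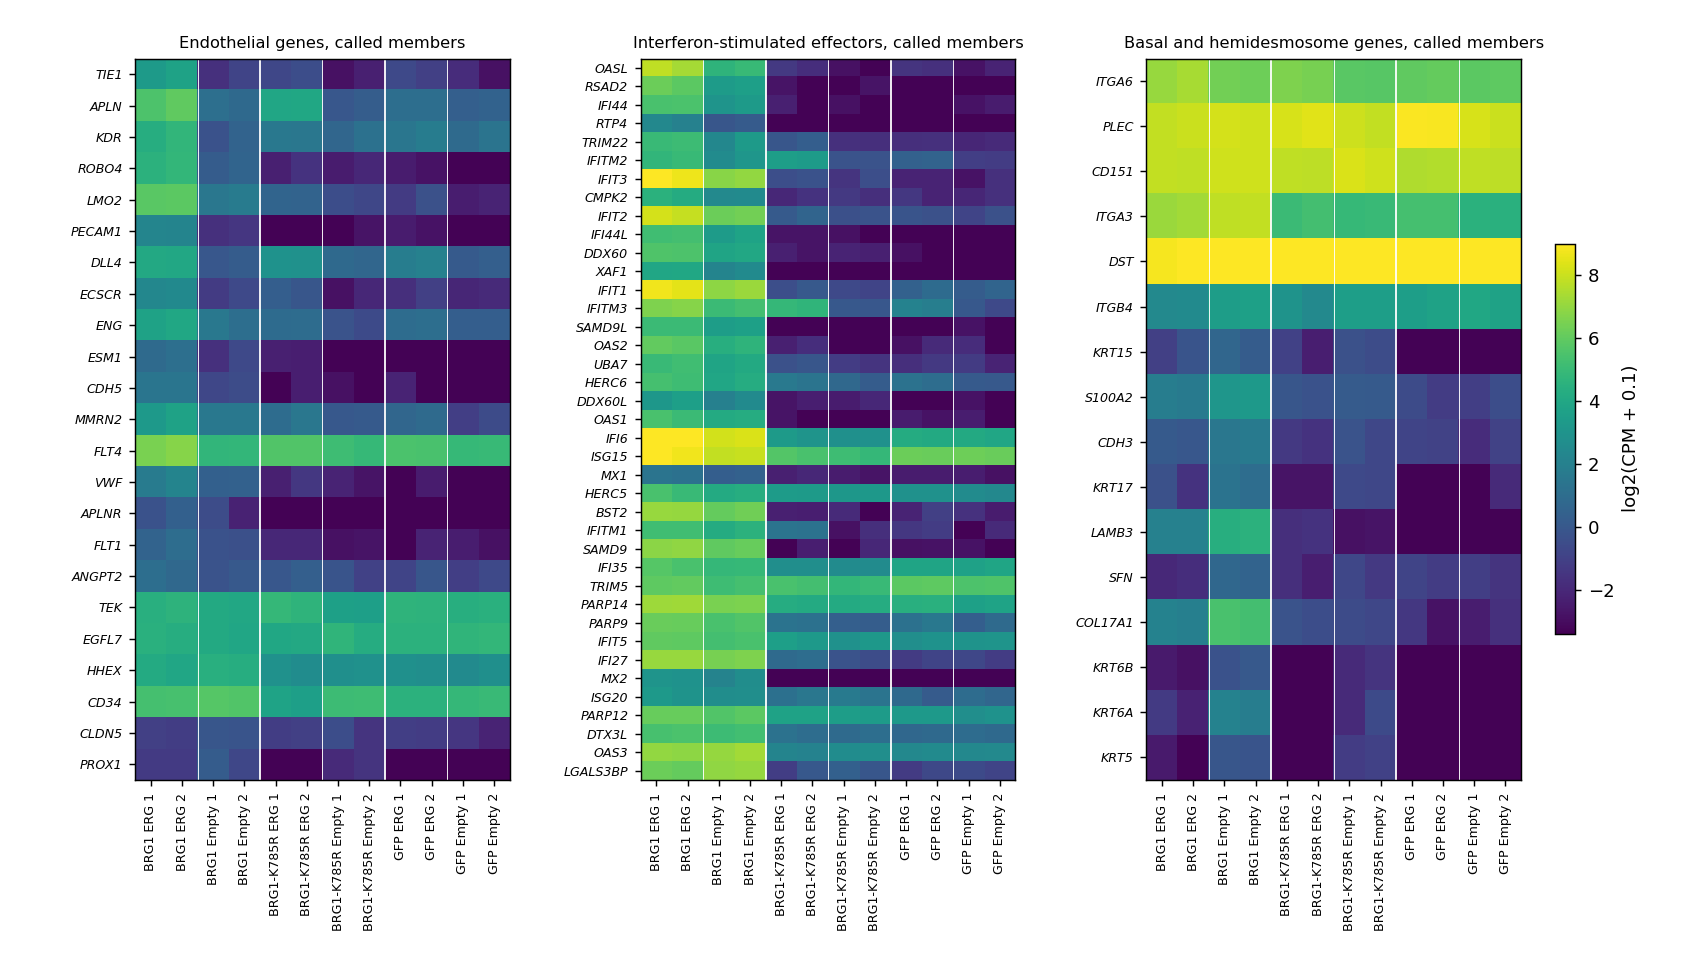
Level of called members, as log2(CPM + 0.1), in the 12 SW13 libraries for endothelial genes (left), interferon-stimulated effectors (centre) and basal and hemidesmosome genes (right), ordered by the log2 change with ERG beside BRG1. White lines part the groups, with BRG1 at the left, then BRG1-K785R and GFP. The summed level of the interferon effectors is 4583 and 4121 CPM in BRG1 ERG, 2016 and 2259 CPM in BRG1 Empty and under 300 CPM in the other libraries, and 37 of the 39 drawn are higher in BRG1 ERG than in BRG1 Empty.

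The summed level of the effectors outside the BRG1 groups was 293 and 297 CPM in GFP ERG, against 257 and 262 CPM in GFP Empty, and 293 and 272 CPM in BRG1-K785R ERG, against 217 and 225 CPM in BRG1-K785R Empty. Beside GFP, 7 of the 40 rose with ERG and none fell, where 12.6% of all genes rose and 13.5% fell, 26.0% in either direction. The ERG effect itself was higher beside BRG1 than beside GFP for 9 of the 40, lower for 1 and not called for 30, where 19.1% of all genes were higher and 18.7% lower, 37.8% in either direction. For IFIT1 the difference was 1.29 ± 0.31 on the log2 scale (adjusted p = 0.00152). Without ERG, 39 of the 40 were higher in BRG1 Empty than in GFP Empty, with a median log2 change of 6.44. Of all genes 32.2% were higher there. RSAD2 had 0 reads in GFP ERG and 0 in GFP Empty. Few reads beside GFP limit the test, so a member not called may still differ in its ERG effect.

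Class I antigen presentation genes rose with smaller changes. Of 17 genes 14 rose, none fell and 3 were not called, with a median log2 change of 0.55, and 14 were called higher under each of the 12 alternatives run. B2M, the light chain of class I molecules, stood at 552 and 557 CPM with ERG, against 345 and 325 CPM without it (log2 change 0.73 ± 0.07, adjusted p = 4.24e-10). The peptide-trimming protease ERAP2 stood at 72.4 and 83.6 CPM with ERG, against 24.3 and 25.7 CPM without it (log2 change 1.64 ± 0.1, adjusted p = 3.27e-15) and the immunoproteasome subunit PSMB9 at 24.6 and 24.8 CPM with ERG, against 9.51 and 11.5 CPM without it (log2 change 1.23 ± 0.12, adjusted p = 2.29e-10). The groups did not overlap in these 3 genes. HLA-B, HLA-C, HLA-E and HLA-F rose by 0.54 to 1.24 on the log2 scale, but these genes are near-identical in places and reads may be split among them. TAP2, TAPBP and the class I activator NLRC5 were not called.

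Cytokine genes went in both directions, with 7 of 18 tested rising, 8 falling and a median log2 change of -0.33. The death ligand TNFSF10 (TRAIL) stood at 66 and 66.3 CPM with ERG, against 6.29 and 7.81 CPM without it (log2 change 3.23 ± 0.14, adjusted p = 5.69e-19) and the T-cell chemokine CCL5 at 194 and 153 CPM with ERG, against 22.8 and 24.5 CPM without it (log2 change 2.87 ± 0.1, adjusted p = 5.6e-21). CXCL10 and CXCL11, chemokines induced by interferon, rose by 1.17 and 1.77 on the log2 scale, with under 2 CPM without ERG. The falls held inflammatory and myeloid factors. The macrophage factor CSF1 stood at 12.2 and 11.2 CPM with ERG, against 36.4 and 38.7 CPM without it (log2 change -1.68 ± 0.11, adjusted p = 7.1e-14), the monocyte chemokine CCL2 at 3.85 and 2.62 CPM with ERG, against 10.6 and 14 CPM without it (log2 change -1.93 ± 0.2, adjusted p = 2.79e-09) and IL32 at 6.14 and 3.81 CPM with ERG, against 13.7 and 15.5 CPM without it (log2 change -1.55 ± 0.18, adjusted p = 1.41e-08). IL1A, IL1B, CXCL8, IL11 and LIF fell by 0.67 to 2.55 on the log2 scale, with levels under 6 CPM in each library. In DESeq2, or with a mean of at least 1 CPM, 5 members fell rather than 8.

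Basal epithelial and hemidesmosome genes fell. Of 23 genes on the list 19 were tested, 16 fell, 1 rose and 2 were not called, with a median log2 change of -1.45. When members must average 1 CPM, so that fewer are tested, 8 fell. Hemidesmosomes tie the keratin network of basal cells to laminin through integrin alpha-6 beta-4, collagen XVII, plectin and dystonin.

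The laminin chain gene LAMB3 stood at 4.0 and 3.97 CPM with ERG, against 20.3 and 23.7 CPM without it (log2 change -2.46 ± 0.15, adjusted p = 3.46e-14) while LAMA3, another laminin chain, had a log2 change of 0.13 and was not called. The integrin ITGB4 stood at 5.25 and 5.66 CPM with ERG, against 11.1 and 12.3 CPM without it (log2 change -1.1 ± 0.15, adjusted p = 2.89e-07). Its partner ITGA6 was the member that rose, at 135 and 168 CPM with ERG, against 81.7 and 77.1 CPM without it (log2 change 0.93 ± 0.08, adjusted p = 6.28e-11). The cytolinkers DST (455 and 635 CPM with ERG, against 947 and 860 CPM without it, log2 -0.73) and PLEC (232 and 259 CPM with ERG, against 293 and 279 CPM without it, log2 -0.22) fell too. The heterodimer partners ITGB4 and ITGA6 thus moved in opposite directions, each without overlap between groups.

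Keratins of basal and stressed epithelium were low even without ERG. KRT6A stood at 0.311 and 0.116 CPM with ERG, against 4.25 and 3.47 CPM without it (log2 change -4.15 ± 0.42, adjusted p = 2.9e-09) and KRT17 at 0.699 and 0.231 CPM with ERG, against 2.43 and 1.93 CPM without it (log2 change -2.22 ± 0.41, adjusted p = 4.57e-05). Without BRG1 ERG 1 the KRT6A change was -5.0. KRT5 had 2 and 0 reads with ERG, against 24 and 21 reads without it. KRT6A and KRT6B are near-identical copies, so their reads may be split. TP63, KRT14, DSC3 and DSG3 were too low to test, so the defining basal factor TP63 could not be compared.

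The ERG effect on basal genes was lower beside BRG1 than beside GFP for 9 of the 19 and higher for 1. Without ERG, 17 of the 19 were higher in BRG1 Empty than in GFP Empty, with a median log2 change of 3.79. Of all genes 32.2% were higher there. A gene with few reads in GFP cells has little room to fall, so a lower effect beside BRG1 cannot show whether ERG would lower it without BRG1. In GFP cells LAMB3 had no read in either group. COL17A1 stood at 0.283 and 0.0418 CPM in GFP ERG, against 0.0906 and 0.207 CPM in GFP Empty, and the difference of ERG effects was -3.46 ± 0.82 on the log2 scale (adjusted p = 0.00118). For ADAMTS15 that difference was -3.64 ± 0.6 on the log2 scale (adjusted p = 1.58e-05).

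Luminal epithelial genes gave 3 rises and 8 falls of 20 tested, with a median log2 change of -0.36. The simple-epithelial keratins KRT8 (58.9 and 44.7 CPM with ERG, against 18.5 and 19.2 CPM without it, log2 1.46) and KRT18 (107 and 74.4 CPM with ERG, against 31.9 and 30.6 CPM without it, log2 1.54) rose. KRT7 fell to 0.194 and 0.231 CPM with ERG, against 2.57 and 3.1 CPM without it (log2 change -3.7 ± 0.42, adjusted p = 2.71e-08). The adhesion gene CDH1 (E-cadherin) stood at 1.75 and 2.27 CPM with ERG, against 5.43 and 6.27 CPM without it (log2 change -1.54 ± 0.21, adjusted p = 4.85e-07), the desmosomal DSP at 2.56 and 3.39 CPM with ERG, against 8.51 and 9.36 CPM without it (log2 change -1.58 ± 0.19, adjusted p = 3.34e-08) and the mucin MUC1 at 9.99 and 11.3 CPM with ERG, against 23.9 and 27.7 CPM without it (log2 change -1.28 ± 0.14, adjusted p = 5e-09). Keratins of one pair rose while junction genes of the same list fell, with no overlap between groups in these 6.

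Mesenchymal and adhesion genes gave 6 rises and 11 falls of 23 tested (median log2 -0.49). The receptor kinase AXL stood at 9.05 and 7.89 CPM with ERG, against 45.3 and 43.9 CPM without it (log2 change -2.39 ± 0.11, adjusted p = 8.84e-18) and the hyaluronan receptor CD44 at 12.1 and 12 CPM with ERG, against 65.9 and 59.9 CPM without it (log2 change -2.38 ± 0.11, adjusted p = 8.84e-18). Both fell about 5-fold. The repressors of epithelial genes ZEB1 (45.4 and 52.5 CPM with ERG, against 22.7 and 22.3 CPM without it, log2 1.12) and SNAI1 (5.4 and 5.04 CPM with ERG, against 2.64 and 1.7 CPM without it, log2 1.26) rose. VIM, the intermediate filament vimentin, fell to 115 and 112 CPM with ERG, against 162 and 156 CPM without it (log2 change -0.49 ± 0.07, adjusted p = 1.97e-06). E-cadherin and vimentin were therefore both lower, and the repressors higher.

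Matrix genes were rearranged rather than moved one way, with 11 rises and 10 falls of 32 tested and a median log2 change of 0.14. Without BRG1 ERG 2, 7 rose. SPARC, a collagen-binding matricellular protein, stood at 1418 and 1660 CPM with ERG, against 103 and 114 CPM without it (log2 change 3.83 ± 0.09, adjusted p = 3.23e-25). It was at 0.728 and 1.05 CPM in GFP ERG, against 0.997 and 0.578 CPM in GFP Empty. The fibrillar collagen COL5A2 stood at 7039 and 8090 CPM with ERG, against 3867 and 3810 CPM without it (log2 change 0.98 ± 0.08, adjusted p = 2.11e-12), while COL1A1 stood at 9.87 and 11.6 CPM with ERG, against 55 and 55.7 CPM without it (log2 change -2.37 ± 0.11, adjusted p = 5.09e-18). The laminin chain LAMB1 stood at 61.8 and 67.9 CPM with ERG, against 179 and 177 CPM without it (log2 change -1.45 ± 0.09, adjusted p = 7.7e-15). These fibrillar collagens thus changed in opposite directions with no overlap between groups.

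Matrix proteases and inhibitors gave 7 rises and 9 falls of 24 tested. The inhibitor TIMP3 rose, at 23 and 27.5 CPM with ERG, against 4.54 and 3.74 CPM without it (log2 change 2.61 ± 0.16, adjusted p = 6.41e-15), and TIMP1 fell, at 43.6 and 38.1 CPM with ERG, against 76.9 and 82.6 CPM without it (log2 change -0.96 ± 0.09, adjusted p = 8.86e-11). The serine protease inhibitor SERPINE2 rose, at 62.1 and 67.8 CPM with ERG, against 27.9 and 26.5 CPM without it (log2 change 1.25 ± 0.09, adjusted p = 4.88e-13). Urokinase PLAU stood at 32.9 and 28.3 CPM with ERG, against 59.1 and 56.6 CPM without it (log2 change -0.92 ± 0.09, adjusted p = 9.86e-10) and the metalloproteases MMP10 at 55.6 and 57.5 CPM with ERG, against 90.1 and 87.3 CPM without it (log2 change -0.65 ± 0.08, adjusted p = 7.9e-08) and MMP7 at 0.933 and 1.04 CPM with ERG, against 3.86 and 4.49 CPM without it (log2 change -2.08 ± 0.28, adjusted p = 2.51e-07). The named proteases were lower and 2 of the 3 named inhibitors higher.

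Genes that others reported as restored by BRG1 in deficient lines were moved in both directions, with 8 rises and 5 falls of 15 tested and a median log2 change of 0.69. The rises held SPARC, TIMP3, KRT8 and KRT18 (above), the chaperone CRYAB (log2 change 0.78 ± 0.08, adjusted p = 3.69e-10) and RHOB (log2 change 0.69 ± 0.08, adjusted p = 8.81e-09). SMARCA2, which encodes BRM, the alternative BAF ATPase, stood at 2.53 and 2.39 CPM with ERG, against 0.929 and 1.21 CPM without it (log2 change 1.2 ± 0.3, adjusted p = 0.0013). The falls held CD44, CSF1, CDH1, VIM and CAV1.

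Other ETS genes shifted below the level of the construct. Leaving ERG aside, 6 of 21 tested members rose and 13 fell, and without BRG1 ERG 1 there were 8 falls. The PEA3 members ETV4 (16.3 and 16.5 CPM with ERG, against 49.7 and 53.3 CPM without it, log2 -1.65) and ETV5 (129 and 124 CPM with ERG, against 235 and 232 CPM without it, log2 -0.88) and the founding member ETS1 (5.32 and 4.85 CPM with ERG, against 15 and 12.9 CPM without it, log2 -1.46) fell. ETV6, a repressor of the family, rose, at 43.8 and 47.3 CPM with ERG, against 25.8 and 29.7 CPM without it (log2 change 0.72 ± 0.09, adjusted p = 1.2e-07). The summed level of the list with ERG was 2599 and 2920 CPM with ERG, against 958 and 955 CPM without it, and the construct itself is counted in it.

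Of 31 BAF subunits tested, 3 rose, SMARCA2 among them, 9 fell and 19 were not called, with a median log2 change of -0.13. Without BRG1 ERG 2, 5 fell. ARID1A, the large DNA-binding subunit, stood at 140 and 152 CPM with ERG, against 226 and 218 CPM without it (log2 change -0.6 ± 0.07, adjusted p = 5.37e-08), the largest fall among subunits above 50 CPM.

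**Figure D3:**
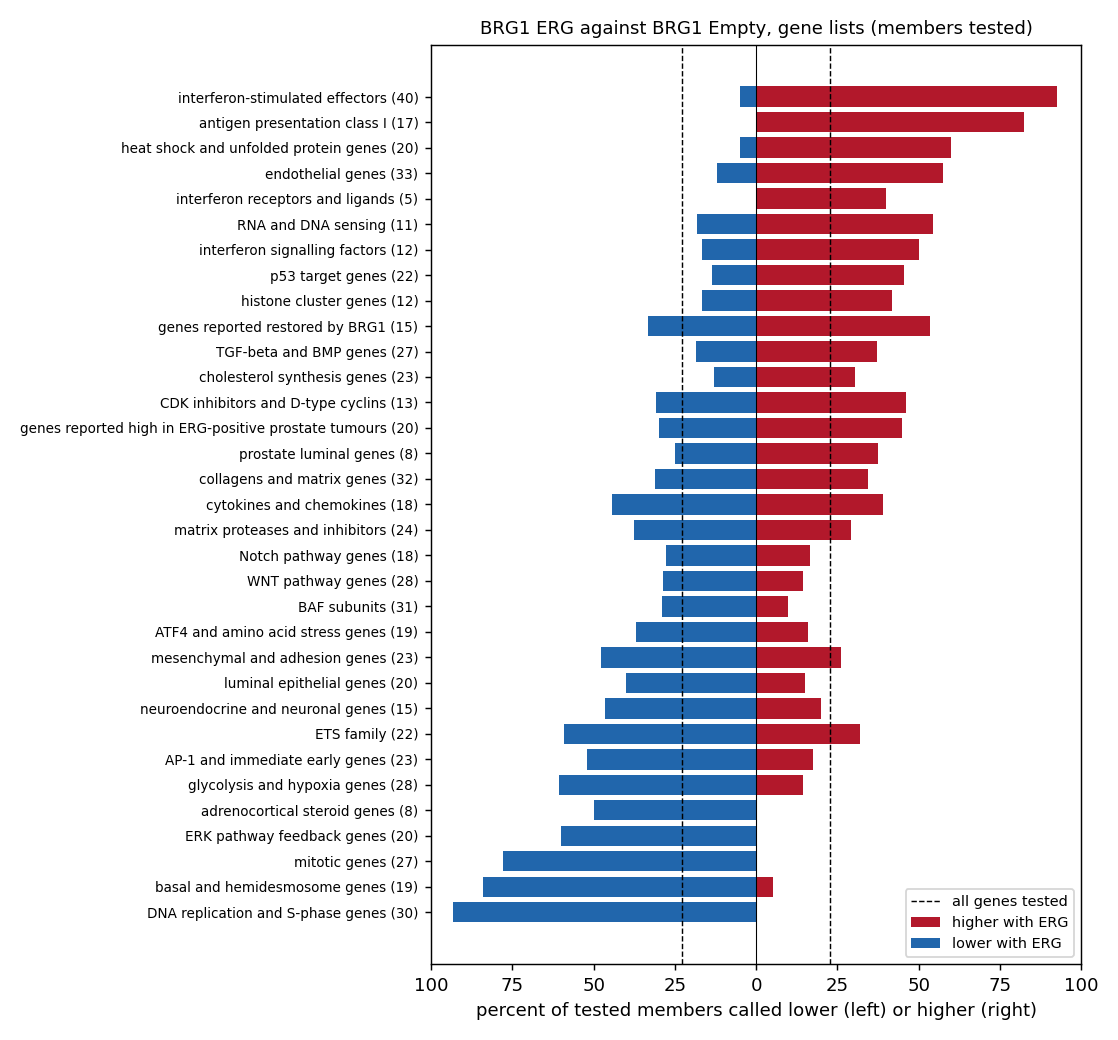
Percent of the tested members of each of 33 gene lists called higher (right, red) or lower (left, blue) in BRG1 ERG against BRG1 Empty, with the number tested in brackets and dashed lines at the shares for all genes tested. Interferon effectors and class I antigen presentation reach furthest to the right, S-phase, basal and mitotic genes furthest to the left.

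Proliferation genes fell together by modest amounts. Of 30 DNA replication and S-phase genes 28 fell and none rose, with a median log2 change of -0.53, and 28 were called lower under each of the 12 alternatives run. The E2F1 and E2F2 factors, which switch on replication genes, stood at 59.8 and 58.8 CPM with ERG, against 102 and 107 CPM without it (log2 change -0.82 ± 0.08, adjusted p = 1.51e-10) and 23.7 and 24.1 CPM with ERG, against 50.3 and 52.9 CPM without it (log2 change -1.11 ± 0.09, adjusted p = 2.37e-11). UHRF1, which helps copy DNA methylation, stood at 80.0 and 81.2 CPM with ERG, against 168 and 165 CPM without it (log2 change -1.05 ± 0.07, adjusted p = 3.83e-13), and the replicative helicase subunit MCM7 at 343 and 315 CPM with ERG, against 525 and 513 CPM without it (log2 change -0.66 ± 0.07, adjusted p = 7.41e-09). None of these ranges overlapped. PCNA, the sliding clamp, had a log2 change of -0.08 and was not called.

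Of 27 mitotic genes 21 fell and none rose, with a median log2 change of -0.38. The proliferation antigen MKI67 stood at 375 and 395 CPM with ERG, against 719 and 713 CPM without it (log2 change -0.89 ± 0.07, adjusted p = 2.31e-12), AURKB at 33.5 and 28.8 CPM with ERG, against 55.6 and 53.8 CPM without it (log2 change -0.81 ± 0.09, adjusted p = 4.41e-09) and the mitotic regulator FOXM1 at 86.9 and 83.2 CPM with ERG, against 134 and 137 CPM without it (log2 change -0.67 ± 0.07, adjusted p = 6.61e-09). Both lists also fell beside GFP, where 22 of 30 S-phase and 13 of 27 mitotic genes were lower with ERG. The ERG effect was lower beside BRG1 than beside GFP for 13 of 30 and 10 of 27, and higher for none. Summed S-phase levels were 2572 and 2453 CPM in BRG1 ERG, against 3665 and 3667 CPM in BRG1 Empty, and 3307 and 3261 CPM in GFP ERG, against 3732 and 4331 CPM in GFP Empty.

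Among CDK inhibitors and D-type cyclins 6 of 13 rose and 4 fell. CDKN1A, the p21 inhibitor, stood at 20.5 and 23.8 CPM with ERG, against 12.5 and 10.9 CPM without it (log2 change 0.92 ± 0.13, adjusted p = 1.09e-06) and CDKN2C, the p18 inhibitor, at 130 and 109 CPM with ERG, against 66.5 and 66.5 CPM without it (log2 change 0.85 ± 0.08, adjusted p = 3.41e-10). CDKN2B, the p15 inhibitor, stood at 28.3 and 28.6 CPM with ERG, against 73.8 and 71.5 CPM without it (log2 change -1.35 ± 0.08, adjusted p = 6.5e-15). CCND1 (cyclin D1) fell to 169 and 162 CPM with ERG, against 319 and 290 CPM without it (log2 change -0.88 ± 0.07, adjusted p = 1.22e-11). The inhibitors did not move as a block, with 2 of these 3 higher.

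Of 22 p53 target genes 10 rose and 3 fell, with a median log2 change of 0.15. GDF15, a secreted stress factor, stood at 9.52 and 11.9 CPM with ERG, against 0.786 and 0.944 CPM without it (log2 change 3.63 ± 0.26, adjusted p = 3.79e-13), the antiproliferative BTG2 at 53 and 57 CPM with ERG, against 16.3 and 16.6 CPM without it (log2 change 1.74 ± 0.09, adjusted p = 2.66e-16) and the death gene BBC3 (PUMA) at 15.8 and 13.1 CPM with ERG, against 6.25 and 5.93 CPM without it (log2 change 1.25 ± 0.14, adjusted p = 6.99e-09). MDM2, the p53 ubiquitin ligase, had a log2 change of 0.11 and BAX one of -0.15, neither called. Without BRG1 Empty 1, or without BRG1 ERG 2, 1 member fell in place of 3.

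Genes that report growth factor signalling through ERK fell. Of 20 feedback and target genes 12 fell and none rose, with a median log2 change of -0.51. DUSP6, a phosphatase of ERK, stood at 318 and 290 CPM with ERG, against 380 and 414 CPM without it (log2 change -0.39 ± 0.07, adjusted p = 5.56e-05), SPRED2 at 57.1 and 60.7 CPM with ERG, against 91.6 and 95.7 CPM without it (log2 change -0.67 ± 0.07, adjusted p = 4.7e-09) and PHLDA1 at 7.5 and 7.16 CPM with ERG, against 20.5 and 23.6 CPM without it (log2 change -1.59 ± 0.14, adjusted p = 9.87e-11). Beside GFP 1 rose and 3 fell, and the ERG effect was lower beside BRG1 for 11 and higher for 1. SPRY1, SPRY2 and DUSP4 had log2 changes of 0.00, 0.02 and -0.06 and were not called.

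Of 23 tested AP-1 subunits and immediate early genes 4 rose and 12 fell, with a median log2 change of -0.42. FOSL1, an AP-1 subunit, stood at 8.67 and 8.32 CPM with ERG, against 33 and 36.2 CPM without it (log2 change -2.03 ± 0.11, adjusted p = 1.04e-15), EGR3 at 0.855 and 0.963 CPM with ERG, against 5.29 and 5.4 CPM without it (log2 change -2.55 ± 0.21, adjusted p = 7.8e-12) and EGR1 at 19.4 and 22 CPM with ERG, against 37.5 and 43.8 CPM without it (log2 change -0.97 ± 0.11, adjusted p = 1.04e-08). KLF2, a flow-responsive factor of endothelium, rose, at 23.2 and 27.3 CPM with ERG, against 11.9 and 12.5 CPM without it (log2 change 1.05 ± 0.1, adjusted p = 6.75e-10). JUN, at 80.4 and 88.8 CPM with ERG, against 91.2 and 83.1 CPM without it, had overlapping groups and was not called. FOSL1 and both EGR members thus fell, each without overlap between groups.

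**Figure D4:**
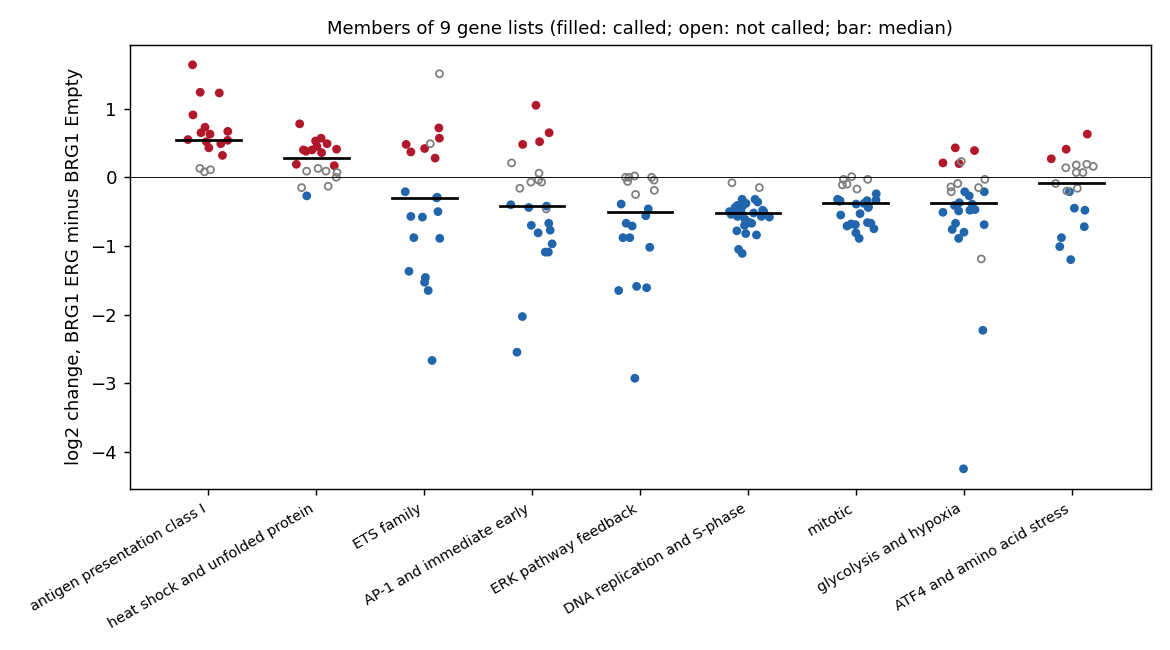
Log2 change in BRG1 ERG against BRG1 Empty for each tested member of 9 gene lists (vertical axis), with ERG left out of the ETS family. Filled points are called, red higher and blue lower, open points are not called, and the bar is the median. All filled points of the ERK, S-phase and mitotic lists lie below 0.

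Metabolic lists fell in part. Of 28 glycolysis and hypoxia genes 17 fell and 4 rose, with a median log2 change of -0.38, against 4 rises and 6 falls beside GFP. LDHA, which makes lactate, stood at 381 and 327 CPM with ERG, against 622 and 615 CPM without it (log2 change -0.8 ± 0.08, adjusted p = 1.48e-09), the glycolytic ENO2 at 47.1 and 49.9 CPM with ERG, against 84.6 and 95.4 CPM without it (log2 change -0.89 ± 0.08, adjusted p = 3.09e-11), and ALDOC at 2.14 and 2.19 CPM with ERG, against 9.01 and 11.3 CPM without it (log2 change -2.23 ± 0.17, adjusted p = 1.15e-12). CA9, a hypoxia-induced carbonic anhydrase, stood at 0.233 and 0.0385 CPM with ERG, against 2.43 and 2.91 CPM without it (log2 change -4.25 ± 0.48, adjusted p = 1.34e-08), a change of -5.93 without BRG1 ERG 1 and -3.48 without BRG1 ERG 2. The ERG effect was lower beside BRG1 than beside GFP for 14 of 28 and higher for 1. For ALDOC the effects went opposite ways, with a rise beside GFP (17.8 and 17.1 CPM in GFP ERG, against 13.2 and 11.5 CPM in GFP Empty) and a difference of -2.72 ± 0.21 on the log2 scale (adjusted p = 2.19e-11). The 4 rises became 1 or 2 without BRG1 Empty 1, BRG1 Empty 2 or BRG1 ERG 2, in DESeq2 and with library totals as the scale.

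Amino acid stress genes under ATF4 gave 3 rises and 7 falls of 19. The amino acid transporters SLC7A5 (96.8 and 94.8 CPM with ERG, against 230 and 209 CPM without it, log2 -1.2) and SLC7A1 (57.8 and 59.5 CPM with ERG, against 124 and 112 CPM without it, log2 -1.01) and the synthetase ASNS (73 and 71.2 CPM with ERG, against 134 and 131 CPM without it, log2 -0.88) fell. ATF4 itself had a log2 change of 0.16 and was not called, and without BRG1 Empty 2 there was 1 rise. Cholesterol synthesis gave 7 rises and 3 falls of 23, none above 0.31 on the log2 scale, and 2 to 4 rises without BRG1 Empty 1, BRG1 Empty 2 or BRG1 ERG 1.

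Chaperone genes changed in opposite directions beside BRG1 and beside GFP. Of 20 heat shock and unfolded protein genes 12 rose and 1 fell beside BRG1, with a median log2 change of 0.28, and the 1 fall was lost without BRG1 Empty 1. Beside GFP none rose and 13 fell. The ERG effect was higher beside BRG1 than beside GFP for 16 of 20 and lower for none. HSPA8, the constitutive HSP70, stood at 2294 and 2415 CPM with ERG, against 1943 and 1677 CPM without it, while beside GFP it stood at 1970 and 2093 CPM with ERG, against 2583 and 2900 CPM without it. The difference was 0.81 ± 0.11 on the log2 scale (adjusted p = 8.23e-07). For the co-chaperone DNAJA1 it was 0.76 ± 0.1 on the log2 scale (adjusted p = 7.23e-07).

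Developmental signalling lists were mixed. Of 27 TGF-beta and BMP genes 10 rose and 5 fell. The latent TGF-beta binding protein LTBP1 stood at 182 and 228 CPM with ERG, against 59.7 and 59.3 CPM without it (log2 change 1.79 ± 0.09, adjusted p = 5.01e-17), FSTL1 at 253 and 283 CPM with ERG, against 102 and 94.6 CPM without it (log2 change 1.45 ± 0.08, adjusted p = 1.76e-16) and the BMP target ID3 at 756 and 711 CPM with ERG, against 427 and 404 CPM without it (log2 change 0.82 ± 0.07, adjusted p = 8.94e-11). The signal transducer SMAD3 stood at 43.2 and 48.9 CPM with ERG, against 88.5 and 90.9 CPM without it (log2 change -0.96 ± 0.08, adjusted p = 2.65e-11) and the secreted TGFBI at 7.11 and 5.24 CPM with ERG, against 25.4 and 27.5 CPM without it (log2 change -2.1 ± 0.15, adjusted p = 7.71e-13). ID3 was higher and SMAD3 lower, each without overlap. With a mean of at least 1 CPM 3 members fell in place of 5.

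Of 28 WNT genes 4 rose and 8 fell. The receptor FZD4 (82.2 and 89.8 CPM with ERG, against 33.1 and 33.5 CPM without it, log2 1.37) and the inhibitor DKK1 (288 and 295 CPM with ERG, against 147 and 145 CPM without it, log2 1.00) rose, and the ligand WNT7B fell to 0.777 and 1.0 CPM with ERG, against 5.07 and 4.23 CPM without it (log2 change -2.38 ± 0.26, adjusted p = 7.13e-09). AXIN2, a general WNT target, had a log2 change of -0.18 and was not called. Of 18 Notch genes 3 rose and 5 fell. Beside DLL4, the target HEY1 rose, at 374 and 370 CPM with ERG, against 201 and 197 CPM without it (log2 change 0.9 ± 0.07, adjusted p = 1.55e-12), and the receptor NOTCH3 fell to 39.8 and 43.4 CPM with ERG, against 98.6 and 109 CPM without it (log2 change -1.32 ± 0.09, adjusted p = 3.03e-14). HES1, another target, had a log2 change of 0.06 and was not called.

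Lineage genes of other tissues gave scattered changes. Of 20 tested genes that others reported high in ERG-positive prostate tumours 9 rose, ERG among them, and 6 fell. PLA1A, a phospholipase, had 143 reads over the ERG libraries, against 2 over the Empty libraries, a ratio of 75.3 with a 95% counting interval of 20.5 to 628. HLA-DMB, a class II peptide-loading gene, stood at 6.18 and 5.16 CPM with ERG, against 1.25 and 1.09 CPM without it (log2 change 2.27 ± 0.24, adjusted p = 2.02e-09). SOX9 and PLAU on that list fell, and EZH2 had a log2 change of -0.15 and was not called. Of 8 tested prostate luminal genes 3 rose and 2 fell, the folate hydrolase FOLH1 most, at 7.38 and 8.05 CPM with ERG, against 1.0 and 0.981 CPM without it (log2 change 2.95 ± 0.24, adjusted p = 7.09e-12).

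Of 15 tested neuroendocrine genes 3 rose and 7 fell. VGF stood at 2.8 and 3.12 CPM with ERG, against 22.7 and 20.3 CPM without it (log2 change -2.86 ± 0.15, adjusted p = 2.13e-16) and the granin CHGA at 0.466 and 0.501 CPM with ERG, against 4.75 and 3.25 CPM without it (log2 change -3.04 ± 0.29, adjusted p = 2.73e-10). Of 8 tested adrenocortical genes 4 fell and none rose, of which only the lipoprotein receptor SCARB1 exceeded 5 CPM, at 58.2 and 59.8 CPM with ERG, against 89.6 and 89.5 CPM without it (log2 change -0.6 ± 0.07, adjusted p = 3.53e-08). Without BRG1 Empty 1 there was 1 fall, without BRG1 Empty 2 or BRG1 ERG 2 there were 2, and without either of the last pair 1 member rose. CYP21A2 has a near-identical pseudogene copy and its reads are uncertain. Of 12 histone genes 5 rose and 2 fell, members of a family of near-identical genes, and without BRG1 Empty 1 there were 3 rises and 1 fall.

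The ERG effect differed from that in cells without BRG1 for many genes. It was higher beside BRG1 than beside GFP for 3247 genes (19.1% of those tested) and lower for 3190 (18.7%), by a test of the difference itself. With library totals as the scale these were 2405 and 4080, and the share of higher calls moved from 50.4% with TMM scaling to 37.1%, as the median difference over all genes moved to -0.118. Beside GFP alone 2141 genes rose (12.6%) and 2292 fell (13.5%), 238 and 32 of them at least 2-fold. Of the genes that rose beside BRG1, 587 also rose beside GFP, which is 15.2% of the BRG1 rises and 27.4% of the GFP rises. A further 607 rose beside BRG1 and fell beside GFP (15.8% and 26.5%). Of the falls beside BRG1, 609 also fell beside GFP (15.7% and 26.6%) and 604 rose there (15.6% and 28.2%). Across the 17018 genes, which are not independent, the effects had a Pearson correlation of 0.19 and a Spearman correlation of 0.02. ERG itself, raised in both by the construct, is among these genes.

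The genes with the largest differences from the effect beside GFP held several of the rises above. For APLN the difference was 4.13 ± 0.35 on the log2 scale (adjusted p = 1.49e-10), for EXOC3L1 4.08 ± 0.5 on the log2 scale (adjusted p = 1.65e-07) and for the kinase SGK1 4.16 ± 0.42 on the log2 scale (adjusted p = 4.13e-09). SGK1 stood at 31.5 and 36.1 CPM with ERG, against 1.75 and 1.89 CPM without it, while it stood at 0.566 and 1.0 CPM in GFP ERG, against 0.634 and 0.867 CPM in GFP Empty. RARRES3, IFI44, APOL3 and SLCO2A1 had 2 to 4 reads over the GFP libraries, so their fitted differences are no measure of size. On the other side stood IGFN1 (-3.94 ± 0.75 on the log2 scale (adjusted p = 0.00011)), COL17A1, ADAMTS15 and the focal adhesion gene TNS3 (-3.3 ± 0.58 on the log2 scale (adjusted p = 3.62e-05)). COL17A1 was near the floor in both GFP groups, as given above, and had little room to fall there.

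Against the ATPase mutant the ERG effect was higher beside BRG1 for 4390 genes (25.8%) and lower for 3473 (20.4%). With library totals as the scale these were 2265 and 5316, and the median difference over all genes moved to -0.18, so the split between directions rests on the scaling. Differences in either direction made up 46.2%. Beside BRG1-K785R 4309 genes rose (25.3%) and 5254 fell (30.9%), 56.2% in either direction. Both contrasts gave 1417 of the rises, 36.8% of those beside BRG1 and 32.9% of those beside BRG1-K785R, and 1920 of the falls, 49.6% and 36.5%. A further 733 genes rose beside BRG1 and fell beside BRG1-K785R (19.0% and 14%), and 674 fell beside BRG1 and rose beside BRG1-K785R (17.4% and 15.6%). Across genes, again with ERG among them, the Pearson correlation was 0.3 and the Spearman correlation 0.22. KDR stood at 2.82 and 2.72 CPM in BRG1-K785R ERG, against 1.53 and 2.27 CPM in BRG1-K785R Empty, a difference of effects of 3.95 ± 0.38 on the log2 scale (adjusted p = 6.79e-10). For APLN, which reached 15.2 and 15.5 CPM in BRG1-K785R ERG, against 0.867 and 1.09 CPM in BRG1-K785R Empty, the difference was smaller, 0.86 ± 0.33 on the log2 scale (adjusted p = 0.0321). SPARC, at 4.65 and 3.53 CPM in BRG1-K785R ERG, against 0.124 and 0.247 CPM in BRG1-K785R Empty, had a difference that was not called, -0.64 ± 0.49 on the log2 scale (adjusted p = 0.302).

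**Figure D5:**
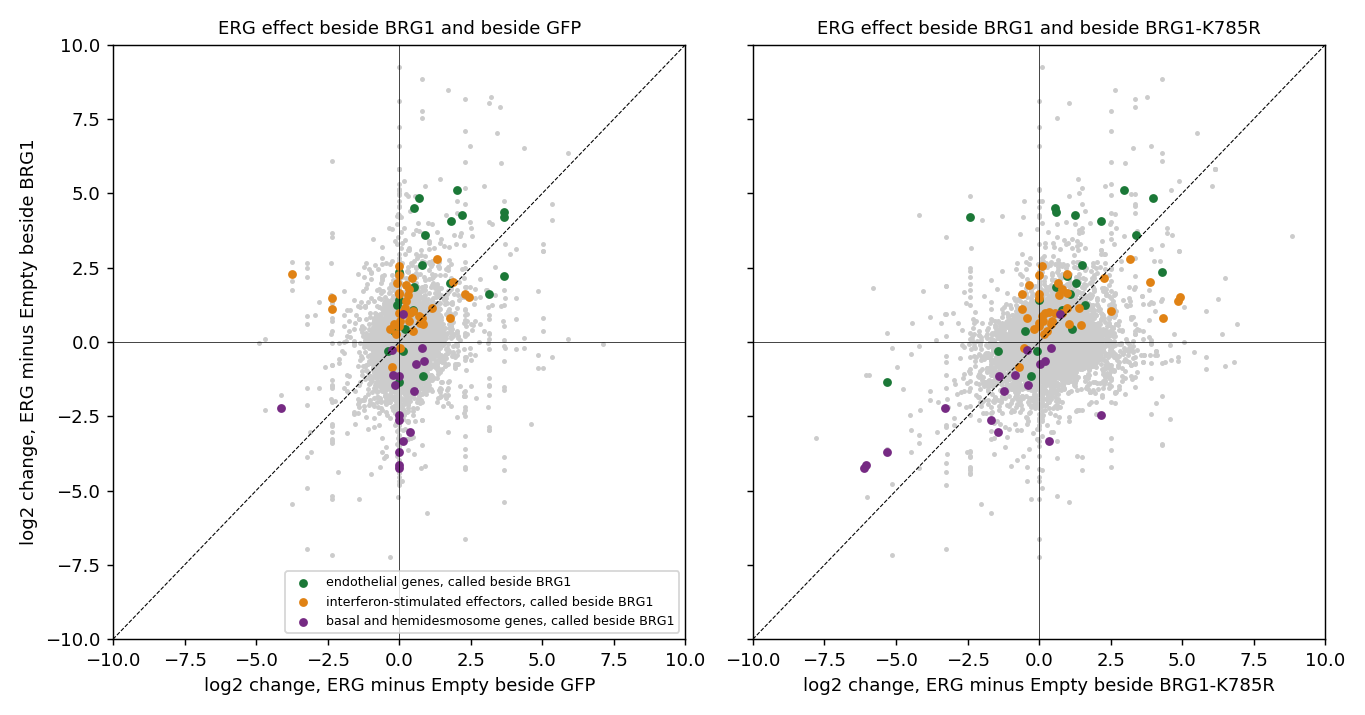
Log2 change with ERG beside BRG1 (vertical) against that beside GFP (left) and beside BRG1-K785R (right), 1 point per tested gene other than ERG, with the called members of 3 lists in colour and a dashed line where the effects are equal. Of the 23 endothelial genes in colour 18 lie above the line in each panel, and most basal genes below 0 on the vertical axis. Coloured genes were chosen by their call beside BRG1, so these positions are no test. By the test of the difference itself, 10 of 33 endothelial genes were higher beside BRG1 than beside GFP and 1 lower. The shares of all genes were 19.1% and 18.7%. Against BRG1-K785R 11 were higher and 1 lower, where 25.8% and 20.4% of all genes were. Points in vertical columns are genes with few reads beside GFP or BRG1-K785R.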

How the data were processed

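The deposited per-gene tables of each library held raw read counts, gene lengths and RPKM. Per the submitters' processing notes, STAR 2.3.1 and hg19 were used; for the counting tool and its use of strand, the entry is: not given in the sources used here. Deposited counts were recomputed to the deposited RPKM values to within 0.0005%. Members and gene lists were chosen with earlier results of these data known. Counts of the 12 SW13 libraries (26346 genes, of which filterByExpr kept 17018) were fitted in 1 model of 6 groups without covariates with edgeR 4.0.16 (R 4.3.3, limma 3.58.1), TMM factors 0.9104 to 1.0651, quasi-likelihood F tests, two-sided, Benjamini-Hochberg threshold 0.05, on 6 residual degrees of freedom. The standard error is the log2 change divided by the root of F. Differences of ERG effects were tested as interaction contrasts. The labels give the duplicates separate infection and culture, and p-values measure the spread between these samples. Named were ERG and SMARCA4, the 14 largest rises and falls among called genes averaging 5 CPM or more over the 4 libraries whose groups do not overlap, up to 6 called members a list by smallest adjusted p, and the 6 largest interaction differences each way. Other members named beside these were chosen after their values were seen. Counting intervals are exact at 95% and cover counting error only. Alternatives were RLE scaling, library totals, no filter, a mean of at least 1 CPM, DESeq2 1.42.0, a replicate block, only the 4 libraries, leaving out both BRG1-K785R Empty libraries, and leaving out each library. The fits were tested on simulated data. There, 44 of 67 genes changed 1.5-fold, 57 of 67 changed 2-fold and 65 of 66 changed 4-fold were recovered. Of the 180 calls in that simulation 14 were false. Some list members are counted with their lists but are not reported here by name.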

Additional observations from a re-analysis of the deposited data

Results flagged for a closer look

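The effect of ERG beside BRG1 differed from its effect beside GFP in the interaction test for many genes, with 3247 higher and 3190 lower. By log2 difference the highest were RARRES3 at 6.42, IFI44 at 6.03, APOL3 at 4.29, SGK1 at 4.16, APLN at 4.13 and EXOC3L1 at 4.08. The lowest were SLCO2A1 at -4.94, IGFN1 at -3.94, ADAMTS15 at -3.64, COL17A1 at -3.46, TNS3 at -3.3 and ALDOC at -2.72. RARRES3 and IFI44 had 0 reads over the GFP ERG libraries, against 3 over the GFP Empty libraries, APOL3 had 2 against 2 and SLCO2A1 had 2 against 0, so these fitted values are not bounds. COL17A1 was also near the floor in both GFP groups.

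Against BRG1-K785R the same test gave 4390 genes with a higher ERG effect beside BRG1 and 3473 with a lower one. By log2 difference the highest were APOL3 at 5.53, SGK1 at 4.79, KIAA1210 at 4.64, CPA4 at 4.56, EXOC3L1 at 4.15 and KDR at 3.95. The lowest were IGFN1 at -6.17, LAMB3 at -4.62, ERG at -4.33, COL17A1 at -3.68, IFITM1 at -3.52 and MALAT1 at -3.51. CPA4 had 0 reads over the BRG1-K785R ERG libraries, against 51 over the BRG1-K785R Empty libraries, KIAA1210 had 2 against 2, LAMB3 9 against 2 and IGFN1 17 against 3. ERG had no read in BRG1-K785R Empty, so its fitted difference depends on the prior count. CPA4 fell in both settings and MALAT1 was low in BRG1-K785R Empty, at 88.8 and 94.2 CPM. The part of those libraries in the differences was not tested.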

How the results depend on the processing

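With library totals as the scale, the ERG effect was higher beside BRG1 than beside BRG1-K785R for 2265 genes and lower for 5316, and for the ERG effect beside BRG1 itself 3279 genes were higher and 4407 lower. In edgeR fits that left out 1 of the 4 libraries, 2801 to 3492 genes were higher and 2902 to 3364 lower beside BRG1. Leaving out 1 of the 8 libraries of each contrast, the ERG effect was higher beside BRG1 than beside GFP for 2487 to 3267 and lower for 2341 to 3091, and higher than beside BRG1-K785R for 3662 to 4415 and lower for 2844 to 3330. DESeq2 called 3292 genes higher and 3323 lower.

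The main fit did not pair samples by replicate number. Across genes, the deviations of same-numbered BRG1 ERG and BRG1 Empty libraries correlated at 0.09. That value shows no strong shared deviation, but it cannot settle whether same-numbered libraries were handled together. With the replicate number as a block, 3811 genes were higher and 3866 lower beside BRG1. Of 203 named genes called, 191 were called under every one of the 12 alternatives that tested them. A further 12 lost the call under at least 1, and 0 reversed. Some low genes, TLR3 and SMARCA2 among them, were not tested with a mean of at least 1 CPM. Groups of 2 allow no test for a single library that stands apart, and low genes limit what can be said of endothelial, basal and lineage members.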
